A study of Mus musculus with 15 samples.

Results

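The genes described here are 9 genes of the thick ascending limb and of renal magnesium handling, namely Umod, Egf, Cldn10, Cldn16, Cldn19, Casr, Trpm6, Bsnd and Cnnm2. They were chosen by name for their function, with earlier results of these data known. They are 9 of the 13933 annotated genes that had a transcript listed for all 15 mice. The level of a gene is the sum of the FPKM (fragments per kilobase, scaled to library size, a level per length) of its annotated transcripts. RNA-seq was performed on the kidneys of 15 wild-type male C57BL/6 mice, 5 in each of 3 groups, which were 8 weeks old when purchased and had 1 week of adaptation. The Control group received saline from an osmotic pump and water by gavage. The Ang II group received angiotensin II, the pressor peptide of the renin-angiotensin system, at 500 ng/kg/min for 4 weeks with the same water. The third group, Ang II + QDG, received the same infusion together with Qingda granule (QDG, a preparation of 4 herbs) at 1.145 g/kg/day. The short name QDG is used for its mice, all of which were infused with Ang II, since no group received the granule alone. Each library was made from the renal tissue of 1 mouse, so all segments of the nephron contribute to every value.

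In the thick ascending limb, sodium, potassium and chloride are taken up from the tubular fluid by the cotransporter NKCC2 (Slc12a1), potassium is returned to the lumen through ROMK (Kcnj1), and chloride leaves the cell on the basolateral side with the help of barttin. The resulting lumen-positive voltage drives calcium and magnesium between the cells, through pores built from claudins, and the calcium-sensing receptor restrains this path. In the next segment, the distal convoluted tubule, which is marked by the cotransporter NCC (Slc12a3), the last share of magnesium is taken up through the cells. The channel TRPM6 and the basolateral protein CNNM2 act there, and epidermal growth factor made in the distal nephron stimulates TRPM6.

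The depth implied by the values was 68924200 to 81330700 reads or fragments per mouse (Control, 75030400 to 81330700, Ang II, 70692700 to 79280200, QDG, 68924200 to 76125500). The transcripts of the mitochondrial genome held 19.4 ± 0.801% (SD, n = 5) of all FPKM in the Control mice, 15.6 ± 0.252% in the Ang II mice and 18.3 ± 1.41% in the QDG mice. FPKM are shares of a library, so this difference touches every other gene. With the mice rescaled without those transcripts, 0 of the 9 genes passed the test in any of the 3 comparisons, as in the values reported below. The same rescaling ended calls of other genes named below, those of Atp1b1 (adjusted p = 0.0638), Mrs2 (0.0843) and Pth1r (0.0568) in Ang II vs. Control and of Mrs2 (0.0755) in QDG vs. Ang II. The defining markers of the segments were detected: Slc12a1 had 17.99 to 230.04 FPKM over the 15 mice, Kcnj1 had 54.1 to 79.7 and Slc12a3 had 44.9 to 142. In bulk tissue, fewer cells of a type and less RNA per cell cannot be told apart.

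None of the 9 genes passed the test in any comparison. The test was limma on log2(FPKM + 1) over the 12366 gene sums that reached 1 FPKM in 5 or more mice, a filter which all 9 genes passed, and a gene was called at a Benjamini-Hochberg adjusted p under 0.05. In Ang II vs. Control, the question was the effect of the infusion, and 0 of 9 genes were called where 5.94% of all gene sums were. In QDG vs. Ang II, which asks for the effect of the granule during infusion, 0 of 9 were called against 1.81%. In QDG vs. Control, 0 of 9 were called against 0.129%.

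At an unadjusted p under 0.05, 2 genes (Trpm6 and Cnnm2, both with higher means) stood out in Ang II vs. Control, against 22.7% of all gene sums. In QDG vs. Ang II there were 4, of which Umod and Cldn16 had higher means and Trpm6 and Cnnm2 lower means, against 16.4% of all gene sums. In QDG vs. Control there were 2, Cldn16 and Bsnd, both with higher means, against 14.4%. With 9 genes, a share near the background corresponds to 1 or 2 genes, so 4 of 9 is the count farthest from it. The study's threshold, a fold of at least 2 at an unadjusted p under 0.05, was used there for transcripts. Applied here to gene sums of FPKM + 1, it called 0 of 9 genes in each comparison, against 1.04%, 0.817% and 0.728% of all gene sums. Adding 1 FPKM lowers the fold of genes at low levels. In no comparison did all mice of one group lie above or below all mice of the other for any of the 9 sums. Such a separation was seen, upward and downward, in 6.49% and 1.42% of all gene sums in Ang II vs. Control, 1.56% and 3.44% in QDG vs. Ang II, and 2.78% and 0.857% in QDG vs. Control. The median log2 fold change of the 9 genes was 0.11, 0.19 and 0.20 in the 3 comparisons in that order, and that of all gene sums was 0.083, −0.018 and 0.059. The comparisons share groups, so their values for one gene are not independent.

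**Figure D1:**
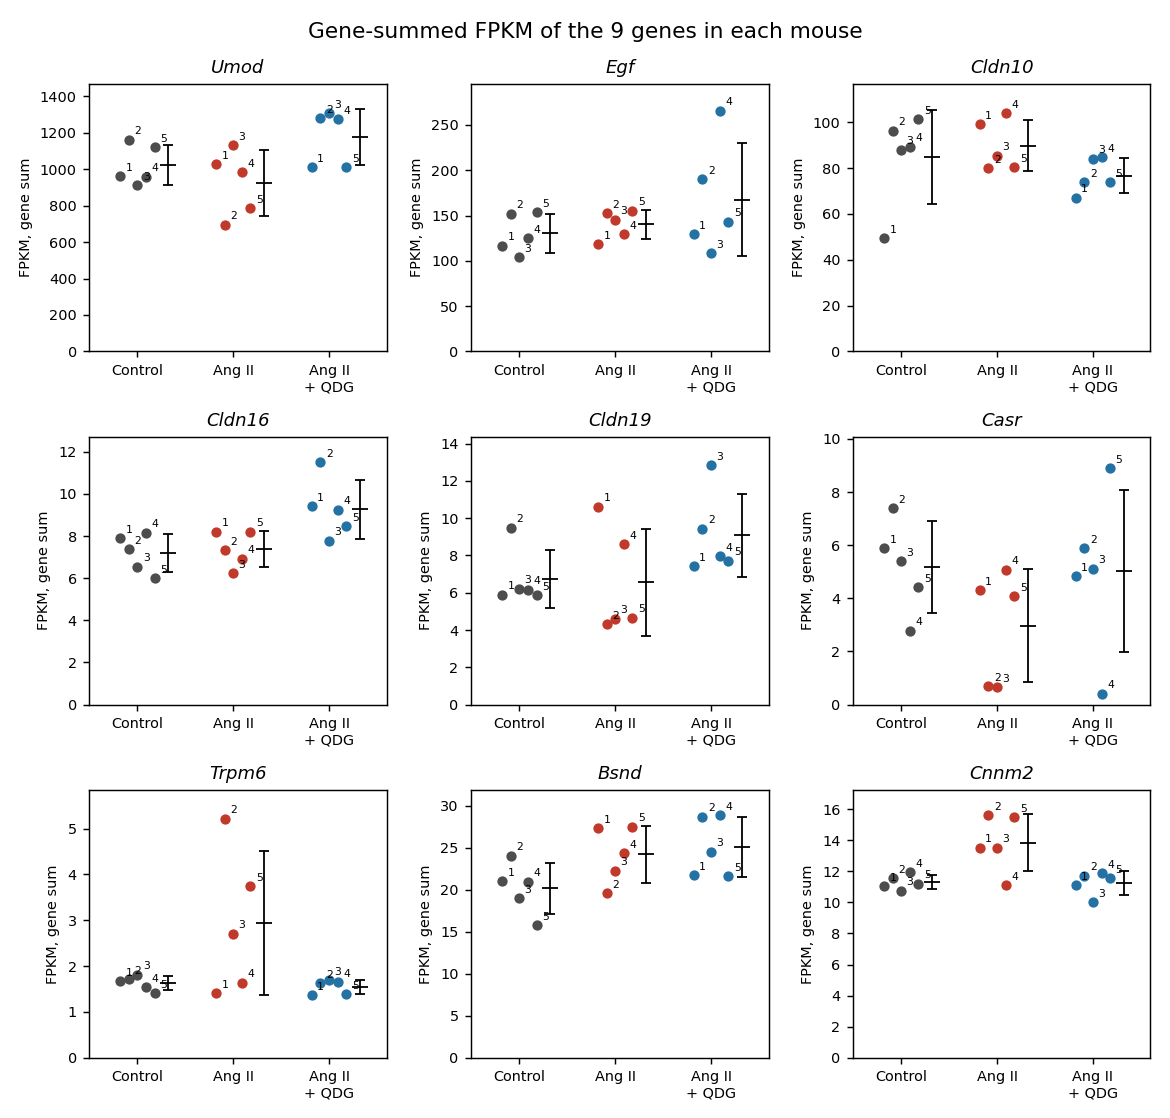
Gene-summed FPKM (vertical axes, starting at 0) of the 9 genes in each mouse of the Control, Ang II and QDG groups, with points numbered by mouse and the mean ± SD (n = 5) beside them. The groups overlap in every panel, and the spread of Trpm6 is wide in Ang II, with 5.22, 3.74 and 2.71 FPKM in 3 mice, and narrow in Control and QDG.

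The levels of the 9 genes spanned a wide range. Umod was the most abundant in every mouse (695 to 1308 FPKM), followed by Egf (104.08 to 266), Cldn10 (49.5 to 104.04), Bsnd (15.8 to 28.9) and Cnnm2 (9.99 to 15.6). The ranges of Egf and Cldn10, and those of Bsnd and Cnnm2, only just failed to overlap. Below them on average came Cldn16 (6.00 to 11.5), Cldn19 (4.32 to 12.8) and Casr (0.409 to 8.91), whose ranges overlapped one another. Those of Cldn16 and Cldn19 also overlapped that of Cnnm2. Trpm6 was lowest on average (1.37 to 5.22). The number of reads behind a gene sum ran from 105 for Casr in 1 mouse to 255619 for Umod in another.

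Umod (ENSMUSG00000030963, chromosome 7, 119462711 to 119479282, minus strand, GRCm38) encodes uromodulin, the protein that thick ascending limb cells secrete into the urine in the largest amount. In Control, Umod had 963, 1161, 913, 959 and 1120 FPKM (mean 1023 ± 110, SD, n = 5). In Ang II, Umod had 1026, 695, 1132, 983 and 785 FPKM (924 ± 180). In QDG, Umod had 1011, 1281, 1308, 1274 and 1010 FPKM (1177 ± 152). The 2 lowest values of all 15 were in Ang II mice 2 and 5, the 3 highest were in QDG, and the groups overlapped. For Umod the log2 fold change was −0.16 in Ang II vs. Control (95% CI −0.44 to 0.12, adjusted p = 0.505), and without Ang II mouse 2 it was −0.066. It was 0.36 in QDG vs. Ang II (95% CI 0.079 to 0.64, adjusted p = 0.180 from limma), and 0.26 without that mouse. In QDG vs. Control it was 0.20 (adjusted p = 0.514). One transcript, Umod-201 (ENSMUST00000033263), carried 97.7% to 99.5% of the sum.

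Egf (ENSMUSG00000028017, chromosome 3, 129677565 to 129755316, minus strand) encodes the precursor of epidermal growth factor. In Control, Egf had 117, 152, 104.08, 125 and 154 FPKM (130.3 ± 21.9). In Ang II, Egf had 118, 153, 145, 129 and 156 FPKM (140.2 ± 16.0). In QDG, Egf had 129.6, 190, 109, 266 and 143 FPKM (167 ± 62.5). QDG mice 4 and 2 were above all other mice, while mouse 3 of that group was below all Ang II mice. No difference exceeded this spread: the log2 fold changes of Egf were 0.11 (adjusted p = 0.784), 0.19 (adjusted p = 0.693) and 0.30 (95% CI −0.13 to 0.73, adjusted p = 0.512) in the 3 comparisons. Without QDG mouse 4, the second was 0.0044 and the third 0.12. Leaving out any 1 mouse gave 0.037 to 0.18 for the first and 0.0044 to 0.33 for the second, and the third was highest, at 0.44, without QDG mouse 3. Egf-201 (ENSMUST00000029653) carried 87.4% to 98.4% of the sum.

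Cldn10 (ENSMUSG00000022132, chromosome 14, 118787908 to 118875489, plus strand) encodes claudin-10, and its alternative first exons give proteins with different first extracellular loops. Claudin-10b is the cation pore of the thick ascending limb, and claudin-10a is an anion-selective form known from the proximal tubule. The transcript Cldn10-201 (ENSMUST00000047761) starts at the upstream first exon (118787908 to 118788370), which codes for the start of claudin-10a. Cldn10-203 (ENSMUST00000100314) starts at the downstream first exon (118854732 to 118855209), which codes for the start of claudin-10b, and 66361 bases lie between these exons. The coding parts of both first exons, 214 and 220 bases on the plus strand of GRCm38 from GENCODE release 21 for mouse, are shown because they are what distinguishes the forms measured. The start codon is in capitals.
Cldn10-201, chr14:118788157-118788370: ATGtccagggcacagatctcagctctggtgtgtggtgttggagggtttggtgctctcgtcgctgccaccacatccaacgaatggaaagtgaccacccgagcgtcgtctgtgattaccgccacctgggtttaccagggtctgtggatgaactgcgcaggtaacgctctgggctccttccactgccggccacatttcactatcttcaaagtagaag
Cldn10-203, chr14:118854990-118855209: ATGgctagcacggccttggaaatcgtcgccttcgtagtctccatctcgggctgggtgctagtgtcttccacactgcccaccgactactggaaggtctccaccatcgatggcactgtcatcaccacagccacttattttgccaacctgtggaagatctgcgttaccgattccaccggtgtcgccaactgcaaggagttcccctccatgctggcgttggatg

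The Cldn10 sum was made mainly of the upstream form, which is not the form known from the thick ascending limb. In Control, the sum had 49.5, 96.3, 88.0, 89.4 and 101 FPKM (84.9 ± 20.5). In Ang II, the Cldn10 sum had 99.1, 80.1, 85.3, 104.04 and 80.4 FPKM (89.8 ± 11.1). In QDG, the Cldn10 sum had 67.1, 73.8, 84.0, 84.7 and 73.7 FPKM (76.7 ± 7.54). The groups overlapped, and Control mouse 1 was the lowest of all 15. The log2 fold changes of Cldn10 were 0.11 (adjusted p = 0.730), −0.22 (95% CI −0.57 to 0.12, adjusted p = 0.538) and −0.11 (adjusted p = 0.804). Without Control mouse 1 the first turned to −0.068 and the third moved to −0.29.

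The downstream form, Cldn10-203, had 12.9, 15.6, 7.35, 8.33 and 9.19 FPKM in Control. In Ang II, Cldn10-203 had 17.1, 4.91, 8.08, 14.6 and 6.57 FPKM, with mice 2, 3 and 5 low. In QDG, Cldn10-203 had 11.5, 14.6, 20.1, 13.2 and 11.4 FPKM. Its share of both forms was 13.8 ± 7.52% (SD, n = 5) in Control, 11.01 ± 4.54% in Ang II and 18.3 ± 3.55% in QDG, and the groups overlapped. Fitted on all 28812 transcripts, the log2 fold change of Cldn10-203 was −0.13 (adjusted p = 0.877), 0.53 (standard error 0.30, adjusted p = 0.544) and 0.40 (adjusted p = 0.693) in the 3 comparisons. The upstream form, Cldn10-201, had 36.6, 80.7, 80.6, 81.1 and 92.1 FPKM in Control and 82.0, 75.2, 77.3, 89.4 and 73.8 FPKM in Ang II. With 55.6, 59.3, 63.9, 71.5 and 62.4 FPKM, all 5 QDG mice were below all 5 Ang II mice for Cldn10-201, a separation seen downward in 2.09% of all transcripts. Its log2 fold change in that comparison was −0.34 (standard error 0.19, adjusted p = 0.542 from limma), in a model whose spread includes that of Control.

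**Figure D2:**
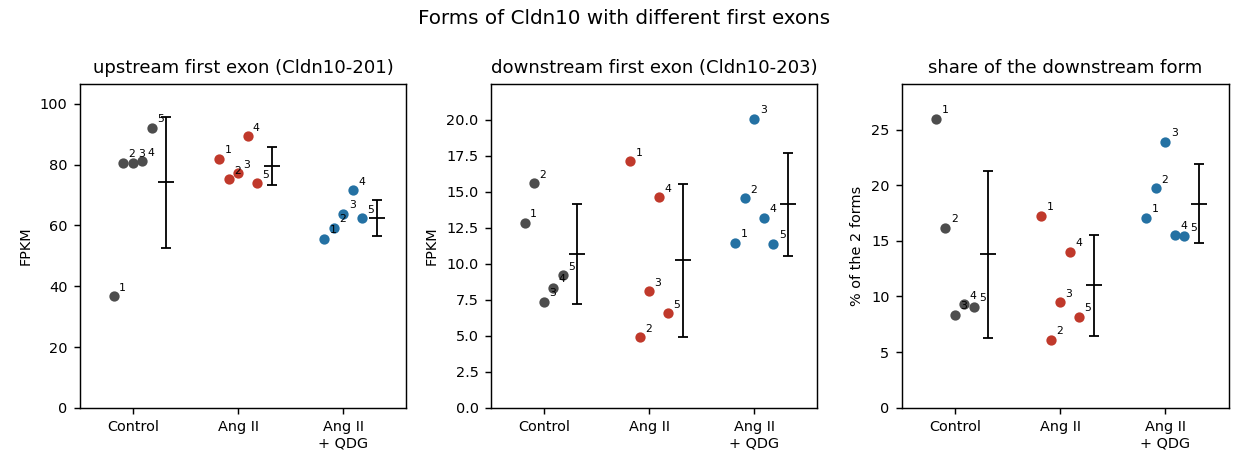
FPKM of the Cldn10 transcripts with the upstream and the downstream first exon (left and middle, axes from 0) and the percentage of their sum held by the downstream form (right), in each numbered mouse with the mean ± SD (n = 5). The upstream form lies between 55.6 and 71.5 FPKM in QDG and between 73.8 and 89.4 in Ang II, while the downstream form overlaps between all groups.

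Cldn16 (ENSMUSG00000038148, chromosome 16, 26463135 to 26482765, plus strand) encodes claudin-16, which with claudin-19 forms the paracellular path for calcium and magnesium in the thick ascending limb. In Control, Cldn16 had 7.90, 7.38, 6.54, 8.16 and 6.00 FPKM (7.20 ± 0.912). In Ang II, Cldn16 had 8.20, 7.33, 6.24, 6.92 and 8.20 FPKM (7.38 ± 0.847). In QDG, Cldn16 had 9.42, 11.5, 7.77, 9.25 and 8.46 FPKM (9.28 ± 1.40). Control and Ang II covered almost the same range, and 4 of the 5 QDG mice were above every mouse of both other groups. The log2 fold change of Cldn16 was 0.033 in Ang II vs. Control (95% CI −0.20 to 0.27, adjusted p = 0.897), and it took the other sign, −0.057, after quantile normalization. In QDG vs. Ang II it was 0.29 (95% CI 0.058 to 0.52, adjusted p = 0.191 from limma). Against Control, QDG gave 0.32 (95% CI 0.091 to 0.56, adjusted p = 0.198 from limma). Neither passed the adjustment under any of the 24 alternatives.

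Cldn19 (ENSMUSG00000066058, chromosome 4, 119255414 to 119262438, plus strand) encodes claudin-19, the partner of claudin-16. In Control, Cldn19 had 5.89, 9.48, 6.22, 6.15 and 5.87 FPKM (6.72 ± 1.55). In Ang II, Cldn19 had 10.6, 4.32, 4.60, 8.59 and 4.66 FPKM (6.56 ± 2.87). In QDG, Cldn19 had 7.42, 9.43, 12.8, 7.95 and 7.71 FPKM (9.07 ± 2.24). Ang II mice 2, 3 and 5 were the lowest of all 15 mice, and mice 1 and 4 of the same group were above most Control mice. The log2 fold changes of Cldn19 were −0.089 (adjusted p = 0.858), 0.47 (95% CI −0.017 to 0.95, adjusted p = 0.324 from limma) and 0.38 (adjusted p = 0.465). As the partners of one pore, Cldn16 and Cldn19 were also compared as a ratio, which does not depend on the scaling of a mouse. The ratio of Cldn16 to Cldn19 was 1.10 ± 0.235 in Control, 1.28 ± 0.472 in Ang II and 1.07 ± 0.268 in QDG. The log2 ratio differed by 0.15 in Ang II vs. Control (exact two-sided permutation test, p = 0.603, adjusted p = 0.778 over the 15 ratio tests), and by −0.22 in QDG vs. Ang II (exact p = 0.524, adjusted p = 0.778), where 0.00794 is the smallest p that 5 mice against 5 allow. Leaving out 1 mouse moved the first from 0.015 (without Ang II mouse 5) to 0.31 (without Ang II mouse 1), and the second from −0.37 (without Ang II mouse 1) to −0.021 (without QDG mouse 3).

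Bsnd (ENSMUSG00000025418, chromosome 4, 106483456 to 106492283, minus strand) encodes barttin, a protein needed for chloride transport across the basolateral membrane. In Control, Bsnd had 21.04, 24.05, 18.96, 20.9 and 15.8 FPKM (20.1 ± 3.05). In Ang II, Bsnd had 27.3, 19.6, 22.3, 24.4 and 27.5 FPKM (24.2 ± 3.40). In QDG, Bsnd had 21.7, 28.7, 24.5, 28.9 and 21.6 FPKM (25.1 ± 3.57). Both infused groups had higher means than Control, with overlap. The log2 fold change of Bsnd was 0.25 in Ang II vs. Control (95% CI −0.013 to 0.52, adjusted p = 0.246 from limma), 0.049 in QDG vs. Ang II (adjusted p = 0.892) and 0.30 in QDG vs. Control (95% CI 0.036 to 0.57, adjusted p = 0.290).

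Casr (ENSMUSG00000051980, chromosome 16, 36493696 to 36562141, minus strand) encodes the calcium-sensing receptor, whose activation on the basolateral side reduces calcium and magnesium reabsorption. Of its 4 annotated transcripts only Casr-203 (ENSMUST00000172826) was listed, so the values describe that transcript. In Control, Casr had 5.90, 7.40, 5.40, 2.79 and 4.41 FPKM (5.18 ± 1.72). In Ang II, Casr had 4.31, 0.696, 0.649, 5.08 and 4.09 FPKM (2.96 ± 2.12). In QDG, Casr had 4.84, 5.88, 5.12, 0.409 and 8.91 FPKM (5.03 ± 3.05). Ang II mice 2 and 3 and QDG mouse 4 were under 1 FPKM, on 202, 188 and 105 reads, and the remaining 12 mice were at 2.79 or above. The spread was the widest of the 9 genes: the log2 fold change of Casr was −0.81 in Ang II vs. Control (95% CI −1.90 to 0.28, adjusted p = 0.375), 0.58 in QDG vs. Ang II (95% CI −0.51 to 1.67, adjusted p = 0.620) and −0.23 in QDG vs. Control (adjusted p = 0.878). Without QDG mouse 4 the last became 0.23 and the second 1.04, and the second was 0.33, 0.32 and 0.34 without Ang II mouse 2, Ang II mouse 3 and QDG mouse 5. Transcripts that the authors assembled carry no gene name and enter no gene sum, and their part in the low values was not tested.

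Trpm6 (ENSMUSG00000024727, chromosome 19, 18749983 to 18892511, plus strand) encodes the apical magnesium channel of the distal convoluted tubule. Only Trpm6-201 (ENSMUST00000040489) of its 4 annotated transcripts was listed. In Control, Trpm6 had 1.67, 1.72, 1.82, 1.54 and 1.41 FPKM (1.63 ± 0.156). In Ang II, Trpm6 had 1.40, 5.22, 2.71, 1.63 and 3.74 FPKM (2.94 ± 1.58). In QDG, Trpm6 had 1.37, 1.63, 1.69, 1.65 and 1.38 FPKM (1.54 ± 0.154). Ang II mice 2, 3 and 5 were above all mice of the other groups, Ang II mouse 4 was within the range of Control, and Ang II mouse 1 (1.403) was just below the lowest Control mouse (1.414). The log2 fold change of Trpm6 was 0.49 in Ang II vs. Control (95% CI 0.050 to 0.94, adjusted p = 0.173 from limma) and −0.54 in QDG vs. Ang II (95% CI −0.99 to −0.099, adjusted p = 0.201). Without Ang II mouse 2 these were 0.31 (adjusted p = 0.325) and −0.35 (adjusted p = 0.347). Between QDG and Control, Trpm6 differed by −0.048 (95% CI −0.49 to 0.40). Adding 1 FPKM compresses changes at this low level, and with a pseudocount of 0.1 the first comparison gave 0.66 (adjusted p = 0.183).

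The same Ang II mice stood apart for some, but not all, other genes of the 2 segments. Slc12a3, the distal convoluted tubule cotransporter, had 51.2, 142, 84.0, 54.1 and 130.3 FPKM in Ang II mice 1 to 5, so mice 2, 3 and 5 were again high, and 44.9 to 64.5 FPKM in Control. Calb1, which encodes the calcium-binding protein calbindin of the distal tubule, had 50.9, 106, 83.1, 54.3 and 102 FPKM in those mice and 57.8 to 93.6 in Control. Slc12a1, the thick ascending limb cotransporter, had the opposite order, with 163, 17.99, 94.6, 142 and 42.1 FPKM in Ang II and 68.0 to 191 in Control. Cldn19 was also low in Ang II mice 2, 3 and 5, but other genes of that segment did not follow this order. Kcnj1 had 61.2, 55.3, 61.4, 56.9 and 57.9 FPKM in the Ang II mice. Umod was lowest in mice 2 and 5 but highest in mouse 3 (1132 FPKM), and Cldn16 was at 8.20 FPKM in both mouse 1 and mouse 5. Pvalb (parvalbumin, also a marker of the distal convoluted tubule) had 8.68, 11.9, 14.4, 9.66 and 14.8 FPKM in the Ang II mice, within or below the 9.97 to 16.3 of Control. Summed over its 4 markers, the distal convoluted tubule list ran from 112 to 265 FPKM in Ang II, 116 to 168 in Control and 109 to 194 in QDG. The thick ascending limb list of 6 markers ran from 791 to 1312 FPKM in Ang II, 1078 to 1465 in Control and 1227 to 1662 in QDG. The first list includes Trpm6 and the second Umod, Cldn16 and Cldn19. Umod made up most of the second sum (695 of 791 FPKM in Ang II mouse 2, 1132 of 1312 in mouse 3). That sum therefore mainly repeats the values of this member. In Ang II mice 2 and 5, the 5 proximal tubule markers summed to 4086 and 3780 FPKM and the 5 principal cell markers to 163 and 140.02. In Ang II mice 1, 3 and 4 these sums were 2886 to 3017 and 226 to 346. The markers of a list did not move together. Slc34a1 alone held 3065 and 2941 FPKM of the proximal tubule sums in mice 2 and 5. Slc5a2 (301 and 233 FPKM) was above the Control range in both mice, and Slc22a6 (411 and 322) only in mouse 2. Lrp2 (236 and 215) and Cubn (72.7 and 68.3) were within it. Of the principal cell markers, Scnn1b was highest of all 15 mice in Ang II mouse 2 (21.96 FPKM). The parts of the sampled tissue and of assembled transcripts without a gene name in these differences were not tested.

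Trpm6 was also taken as a ratio to Slc12a3. The ratio was 0.0301 ± 0.00321 in Control, 0.0311 ± 0.00366 in Ang II and 0.0226 ± 0.00819 in QDG. Its log2 value differed by 0.045 in Ang II vs. Control (exact permutation p = 0.667, adjusted p = 0.778), by −0.52 in QDG vs. Ang II (exact p = 0.0476, adjusted p = 0.272) and by −0.47 in QDG vs. Control (exact p = 0.0635, adjusted p = 0.272). The ratio overlapped in all 3 comparisons, and QDG mouse 3 (0.0367) was above every Control mouse. The corresponding ratio of Egf to Slc12a3 was 2.45 ± 0.687, 1.74 ± 0.608 and 2.32 ± 0.769 in Control, Ang II and QDG, and none of its 3 comparisons passed (lowest exact p = 0.127, adjusted p = 0.272). For Umod to Slc12a1 the ratio was 9.82 ± 3.07, 16.5 ± 13.3 and 6.99 ± 1.07, with 38.6 in Ang II mouse 2, and none passed either (lowest exact p = 0.0873, adjusted p = 0.272).

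**Figure D3:**
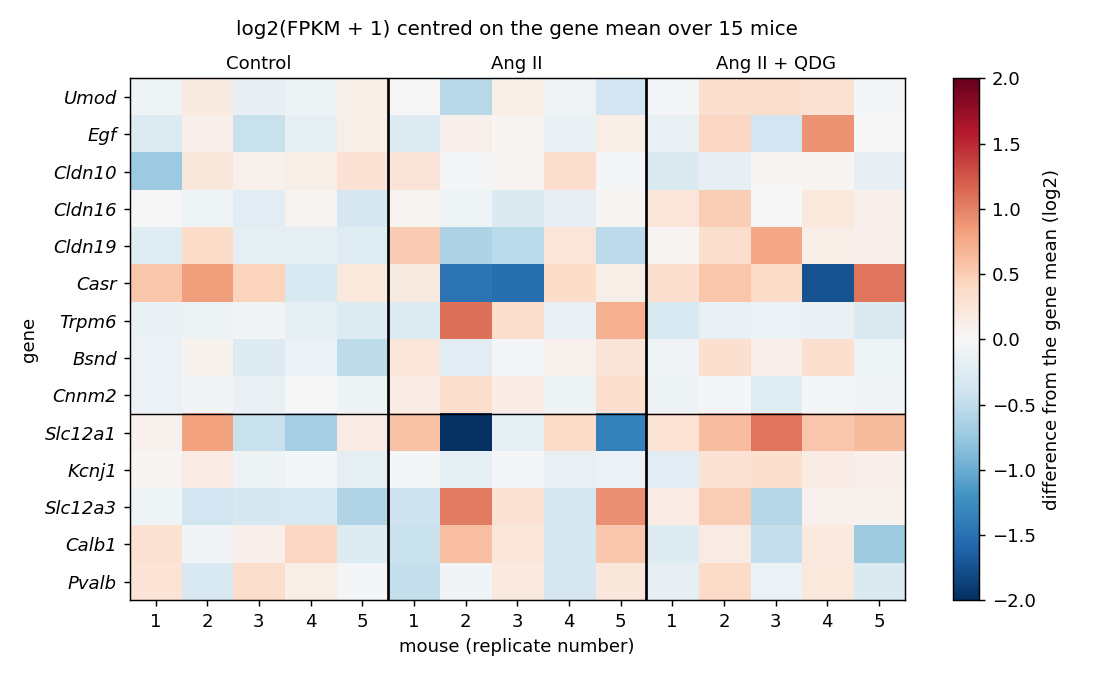
Heat map of log2(FPKM + 1) of the 9 genes (rows above the line) and 5 marker genes (below it), as the difference from the gene's mean over the 15 mice (columns, grouped by treatment and numbered). Ang II mice 2, 3 and 5 have Trpm6 (5.22, 2.71 and 3.74 FPKM) and Slc12a3 above the mean and Cldn19 and Slc12a1 below it, and Ang II mice 1 and 4 show the opposite signs.

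Cnnm2 (ENSMUSG00000064105, chromosome 19, 46761596 to 46880192, plus strand) encodes a basolateral membrane protein needed for magnesium transport, and mutations in its human counterpart cause low blood magnesium. In Control, Cnnm2 had 11.04, 11.5, 10.8, 11.9 and 11.2 FPKM (11.3 ± 0.464). In Ang II, Cnnm2 had 13.5, 15.6, 13.5, 11.1 and 15.5 FPKM (13.8 ± 1.83). In QDG, Cnnm2 had 11.1, 11.7, 9.99, 11.9 and 11.6 FPKM (11.2 ± 0.761). Ang II mice 1, 2, 3 and 5 were above all mice of both other groups, and mouse 4 was within their range. Of the 9 genes, Cnnm2 came nearest to the threshold: its log2 fold change was 0.26 in Ang II vs. Control (95% CI 0.085 to 0.44, adjusted p = 0.0769 from limma) and −0.27 in QDG vs. Ang II (95% CI −0.45 to −0.092, adjusted p = 0.111). Between QDG and Control, Cnnm2 differed by −0.0071 (95% CI −0.18 to 0.17, adjusted p = 0.981). The calls depended on 1 mouse: without Ang II mouse 4 the values were 0.33 (adjusted p = 0.0231) and −0.34 (adjusted p = 0.0366), and both passed. Both listed transcripts contributed, with 45.6% to 69.8% of the sum in Cnnm2-201 (ENSMUST00000077666). In Ang II vs. Control, Cnnm2-201 had a log2 fold change of 0.25 (adjusted p = 0.358) and Cnnm2-202 (ENSMUST00000099373) of 0.27 (adjusted p = 0.380).

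**Figure D4:**
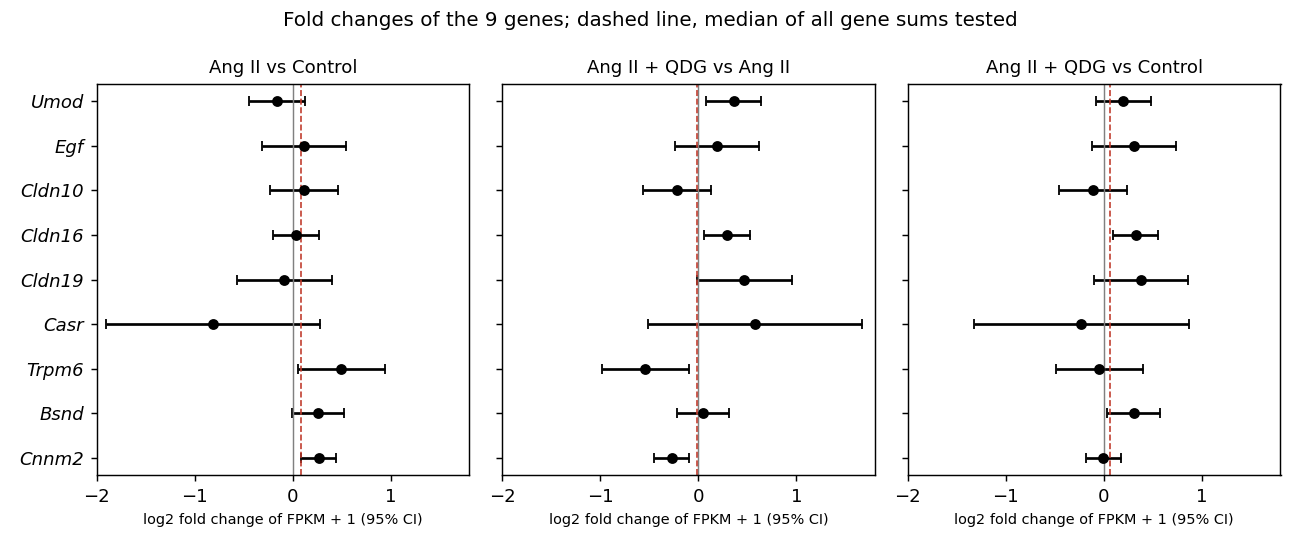
Log2 fold changes of FPKM + 1 (points) with 95% confidence intervals from limma (bars) for the 9 genes in the 3 comparisons, with a solid line at 0 and a dashed line at the median of all 12366 gene sums. The intervals are wide for Casr (−1.90 to 0.28 in Ang II vs. Control) and narrow for Cnnm2 (0.085 to 0.44), and none of these genes passed the adjustment over all gene sums.

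Of the 21 member transcripts listed for all 15 mice, 19 passed the filter on low values and 0 were called by limma in any comparison where 0.691%, 0.0972% and 0.0243% of all 28812 transcripts were. At an unadjusted p under 0.05 there were 1, 3 and 2 of the 19, against 15.9%, 11.3% and 10% of all transcripts. For Cldn19, the transcript Cldn19-202 (ENSMUST00000094823, 4168 bases), carried 62.7% to 84.2% of the sum and had a log2 fold change of 0.55 in QDG vs. Ang II (adjusted p = 0.398 from limma). The other transcript, Cldn19-201 (ENSMUST00000084309) had 0.093 in the same comparison (adjusted p = 0.916). For Cldn16, Cldn16-202 (ENSMUST00000161053) carried 64.3% to all of the sum, and its log2 fold change of 0.22 in QDG vs. Ang II (adjusted p = 0.630) was below the 0.29 of the sum, while the minor Cldn16-201 (ENSMUST00000115302) had 0.25 (adjusted p = 0.881). The minor transcripts of Umod, Umod-202 and Umod-206 (ENSMUST00000207261 and ENSMUST00000209095), had log2 fold changes of −0.00058 and 0.033 in the same comparison, where Umod-201 had 0.36 (adjusted p = 0.323). The minor transcripts of Egf (Egf-203, Egf-204, Egf-206 and Egf-208), which are retained introns or a target of nonsense-mediated decay, ranged from −0.094 to 0.090, and Egf-201 had 0.18 (adjusted p = 0.810).

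Other genes of the thick ascending limb were called where the 9 were not. Of 13 genes listed for transport and regulation in this segment and reported here, 10 were tested, and 2 (Irx3 and Atp1b1) rose in Ang II vs. Control and none fell, where 4.95% of all gene sums rose and 0.995% fell. Their median log2 fold change was 0.24, beside 0.083 for all gene sums. Irx3, a homeobox transcription factor of the developing nephron's intermediate segments, had 20.4, 21.6, 25.4, 19.6 and 21.6 FPKM in Control. In Ang II, Irx3 had 34.8, 28.3, 30.9, 27.9 and 29.2 FPKM. In QDG, Irx3 had 17.1, 17.2, 20.5, 17.9 and 20.1 FPKM. Every Ang II mouse was above every mouse of both other groups. Irx3 rose by 0.46 on the log2 scale in Ang II vs. Control (SE 0.082, adjusted p = 0.00979 from limma) and fell by 0.67 in QDG vs. Ang II (adjusted p = 0.00265), and both calls held under all 24 alternatives, with adjusted p of 0.00849 to 0.0301 and 0.00263 to 0.0201. Among the 10 it was also the 1 gene called in QDG vs. Ang II, where 0.526% of all gene sums rose and 1.29% fell.

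Atp1b1, the beta subunit of the sodium pump, which all tubule segments express, rose from 960 ± 68.3 FPKM in Control to 1136 ± 57.2 in Ang II (log2 fold change 0.24, adjusted p = 0.0226 from limma). Control mouse 2 (1081 FPKM) was above the lowest Ang II mouse (1059 FPKM), and the other Control mice were below all Ang II mice. The call of Atp1b1 held under 19 of 24 alternatives, with adjusted p of 0.00855 to 0.144, and was lost, among others, after median scaling and without Control mouse 1 or 3. Slc12a1 itself differed by −0.61 in Ang II vs. Control (adjusted p = 0.504) and by 1.25 in QDG vs. Ang II (adjusted p = 0.215). Ang II mouse 2, with 17.99 FPKM, was the lowest of all 15 mice for Slc12a1 and weighs on both values, whose dependence on single mice was not examined.

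**Figure D5:**
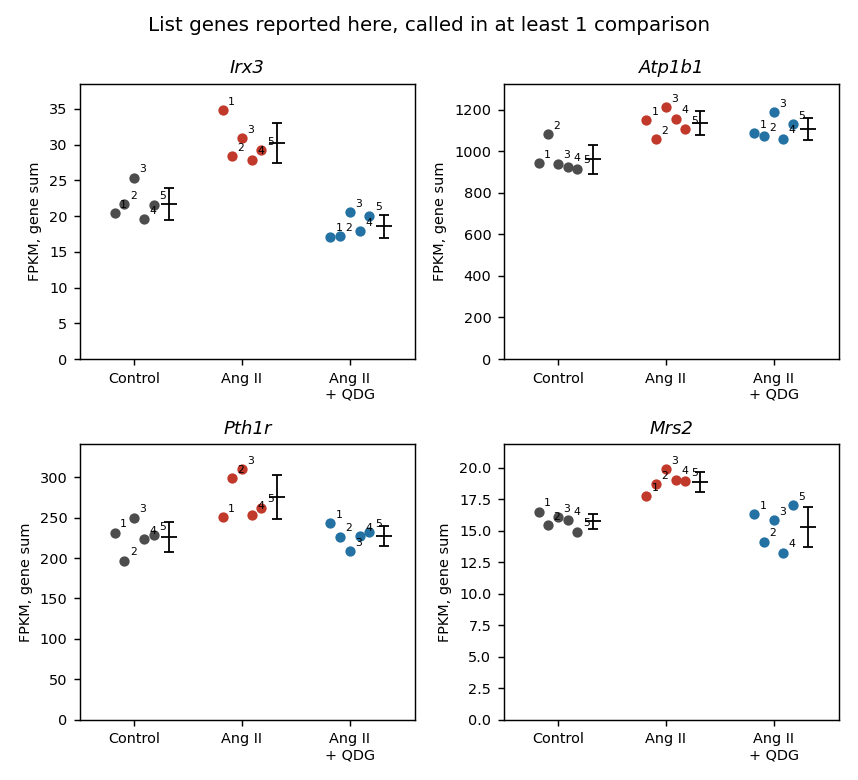
Gene-summed FPKM (vertical axes, from 0) of the 4 genes reported here from the functional lists that were called in at least 1 comparison, in each numbered mouse, with the mean ± SD (n = 5). All Irx3 values in Ang II (27.9 to 34.8 FPKM) lie above those of both other groups, as do those of Mrs2 (17.7 to 19.9 FPKM) and Pth1r (251 to 310 FPKM).

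Among 21 genes of magnesium transport and its regulators, 19 were tested, and 1 rose and none fell in Ang II vs. Control, a share close to the 4.95% of all gene sums that rose. Mrs2, the magnesium channel of the inner mitochondrial membrane, had 16.5, 15.4, 16.1, 15.8 and 14.9 FPKM in Control. In Ang II, Mrs2 had 17.7, 18.7, 19.9, 19.0 and 18.9 FPKM. In QDG, Mrs2 had 16.3, 14.1, 15.8, 13.2 and 17.0 FPKM. The Ang II mice were above all others. Mrs2 rose by 0.25 on the log2 scale (adjusted p = 0.0454 from limma) and fell by 0.29 in QDG vs. Ang II (adjusted p = 0.0436), where it was the 1 gene called. Both calls were close to the threshold and were kept under 8 and 6 of 24 alternatives (adjusted p 0.0293 to 0.251 and 0.0433 to 0.111), and leaving out any 1 Ang II mouse ended both. The most abundant genes of the list, Pcbd1 (an enzyme that is also a transcriptional cofactor), Ptp4a2 (a phosphatase that binds CNNM proteins) and Magt1 (a magnesium transporter), had log2 fold changes of −0.042, −0.042 and 0.014 in Ang II vs. Control, and none was called. The median of the list was −0.021 in Ang II vs. Control, −0.016 in QDG vs. Ang II and 0.054 in QDG vs. Control.

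None of the 10 distal convoluted tubule genes, all tested, was called in any comparison by limma, where 5.94%, 1.81% and 0.129% of all gene sums were. At an unadjusted p under 0.05 there were 2, 0 and 1, against 22.7%, 16.4% and 14.4%. Their median log2 fold change was 0.025, −0.11 and −0.042 in the 3 comparisons. Slc12a3 had 54.6 ± 7.03 FPKM in Control and 92.3 ± 42.2 in Ang II (0.63, adjusted p = 0.185 from limma), and 73.2 ± 18.1 in QDG. Fxyd2, the gamma subunit of the sodium pump, was at 1518 ± 287, 1516 ± 171 and 1592 ± 128 FPKM, and Calb1 at 76.0 ± 14.4, 79.2 ± 25.8 and 62.0 ± 17.0 FPKM.

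In the 2 lists drawn up around Egf and Casr, 1 of 11 genes tested was called, a share near the 5.94% of all gene sums called in Ang II vs. Control. Of 10 EGF receptors and ligands, 7 were tested and 0 called by limma, with 0, 0 and 2 at an unadjusted p under 0.05 in the 3 comparisons (22.7%, 16.4% and 14.4% of all gene sums). The most abundant were the receptors Erbb3 (21.97 ± 2.55 FPKM in Control), Erbb2 (15.4 ± 2.09) and Egfr (11.1 ± 2.35), with log2 fold changes of 0.062, 0.0089 and −0.085 in Ang II vs. Control. Of 5 genes listed for calcium-sensing receptor signalling, 4 were tested. The gene called, Pth1r, encodes the parathyroid hormone receptor, which is a different receptor from that of Casr. Pth1r rose from 226 ± 19.1 FPKM in Control to 275 ± 27.4 in Ang II (0.28, adjusted p = 0.0413 from limma). All 5 Ang II mice were above all Control mice for Pth1r, and the call held under 9 of 24 alternatives (adjusted p 0.0390 to 0.264), ending among others without Control mouse 1, 2, 4 or 5 or Ang II mouse 2, 3 or 5. In QDG, Pth1r had 227 ± 12.5 FPKM, a log2 fold change of −0.27 from Ang II (adjusted p = 0.0802). The adaptor subunit Ap2s1 and the G protein Gna11 differed by −0.015 and 0.16 in Ang II vs. Control and were not called. Hpn, the protease hepsin that releases uromodulin from the cell surface, was at 153 ± 14.3 FPKM in Control mice, 181 ± 15.8 in Ang II mice and 157 ± 13.4 in QDG mice (0.24, adjusted p = 0.0938 in Ang II vs. Control).

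Markers of other cell types were summed in the same way, so the most abundant markers weigh most in a sum. Their counts stand against the 4.95% of all gene sums that rose in Ang II vs. Control. Podocyte markers ran from 54.1 to 65.6 FPKM in Control, 67.4 to 82.4 in Ang II and 72.2 to 88.8 in QDG, and 1 of 3 tested (Podxl) rose in Ang II vs. Control. Smooth muscle and fibroblast markers ran from 37.3 to 53.4 FPKM in Control and 47.3 to 104 in Ang II, and 2 of 5 (Pdgfrb and Tagln) rose. Intercalated cell markers ran from 75.7 to 86.9 and 90.5 to 127 FPKM, and 1 of 4 (Slc26a4) rose. Of the proximal tubule (2739 to 2878 and 2886 to 4086 FPKM), principal cell, endothelium, leukocyte and tubular injury markers, 0 were called by limma in any comparison (5, 4 and 3 of 23 at an unadjusted p under 0.05, against 22.7%, 16.4% and 14.4% of all gene sums), and neither were the 6 thick ascending limb or the 4 distal convoluted tubule markers. All 6 thick ascending limb markers had higher means in QDG than in Ang II (median log2 fold change 0.33, beside −0.018 for all gene sums), 4 of them (Slc12a1, Kcnj1 and the members Umod and Cldn16) at an unadjusted p under 0.05, where 16.4% of all gene sums were. The third member among these 6 markers is Cldn19. The 10 genes tested of the transport and regulation list of this segment, which shares Slc12a1, Kcnj1 and Ptger3 with the markers, went both ways in QDG vs. Ang II, with a positive log2 fold change in 6 and a median of 0.092, and Irx3 among them fell. The member Cldn10 was at −0.22. The part of cell composition in the values of the 9 genes was not tested.

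For each of the 9 genes, the gene sums with the most similar profile over the 15 mice were found by the root mean square difference of profiles centred on the gene's mean and divided by its SD, among 7278 or 7279 other gene sums of at least 5 FPKM. Likeness was closest for Cldn19, whose nearest gene was Scin (difference 0.363), followed by Pla1a (0.401) and Aqp1 (0.416). For Trpm6 the nearest was Tmem59 (0.366), followed by Slc25a45 (0.582) and Osbpl10 (0.590). The nearest genes to Cnnm2 were Gm10039 (0.447), Smarcd2 (0.451) and Tbx2 (0.458). Bsnd was most like Fhl2 (0.475), Timp2 (0.515) and Slco2b1 (0.5195), and Umod was most like Gpx6 (0.497), Mettl7a3 (0.505) and Serpina1f (0.509). Cldn16 lay nearest S100a1 (0.537), Maged2 (0.578) and Rarres2 (0.587), and Cldn10 nearest Pllp (0.553), Il17rc (0.565) and Galnt1 (0.589). Casr had Pkhd1 (0.579), Phldb2 (0.629) and Tmem19 (0.634), and Egf had Id3 (0.673), Traf7 (0.703) and Phax (0.7096).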

How the data were processed

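RNA was measured in the kidneys of 15 mice, 5 in each group, and groups were taken from the labels, which give each sample as 1 mouse. Libraries were depleted of rRNA, and the depth is given above. The values that the authors deposited, 1 for each transcript of a mouse, were taken as FPKM: multiplied by transcript length, 98.5% to 98.7% of the values under 200 reads were whole multiples (within 0.05) of 1 constant per mouse. The intervals implied by these reads cover counting error only and were not used. The submitters' processing notes name mm10 and limma, and the aligner and counter are not given in the sources used here. Control files list 41477 transcripts and the others 42310. All share 40054, of which 11141 are assembled and unnamed and 28863 were matched to GENCODE release 21 for mouse and summed per gene, which leaves out transcripts listed in some files only.

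The members and lists were chosen with earlier results of these data known. The text names all 9 members and their transcripts, every reported list gene called in any comparison, the most abundant genes of each list and, for each member, the 3 nearest profiles. Kcnj1, Pvalb, Slc34a1, Slc5a2, Slc22a6, Lrp2, Cubn and Scnn1b are named as markers. Some list genes, and 1 of the 5 ratios, are not reported here, and list counts leave those genes out. Gene sums that reached 1 FPKM in 5 or more mice were tested with limma 3.58.1 in R 4.3.3 (trend, 1 model of 15 mice, pseudocount 1), two-sided, with Benjamini-Hochberg adjustment over all 12366. Of 5 ratios, 3 comparisons each were tested by exact permutation. The fit was tested on simulated data. Alternatives were 9 settings with all mice and leaving out each of the 15 mice. Those for list genes were added after seeing the data.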

Additional observations from a re-analysis of the deposited data

Results flagged for a closer look

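Of 90 groups of 5 values checked for a value far from the other 4, 7 had one (gap to the nearest value over the range above 0.71), where chance gives about 1 in 20. For Cldn10 in Control, mouse 1 had 49.5 FPKM and the others 88.0 to 101, and the transcript Cldn10-201 had 36.6 FPKM in that mouse and 80.6 to 92.1 in the others. For Cldn19 in Control, mouse 2 had 9.48 FPKM and the others 5.87 to 6.22. The ratio of Cldn16 to Cldn19 was 0.605 in QDG mouse 3 and 1.10 to 1.27 in the others. The ratio of Trpm6 to Slc12a3 was 0.0367 in QDG mouse 3 and 0.0168 to 0.0225 in the others. Of the Control mice, 1 had 3.38 FPKM of Cnnm2-202, where the others had 5.69 to 5.87. Another had 1.42 FPKM of the minor transcript Egf-206, where the others had 0.667 to 0.786. Causes were not tested.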

How the results depend on the processing

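Under all 9 alternatives with every mouse, 0 of the 9 genes were called in each comparison. Leaving out 1 mouse gave 0 to 1, the call being Cnnm2 without Ang II mouse 4, except in QDG vs. Control, which gave 0. Over all gene sums, Ang II vs. Control gave 735 calls, 353 with the most abundant transcript per gene, 456 with a model of the 2 groups only and 338 to 797 without 1 mouse. Quantile normalization gave 227 higher and 266 lower and median scaling 235 and 266, where the main values were 612 and 123. QDG vs. Ang II gave 224 calls (65 higher, 159 lower), 58 with the 2 groups only and 53 to 250 without 1 mouse, and a split of 97 and 97 after quantile normalization and of 78 and 103 after median scaling. QDG vs. Control gave 16 calls (12 higher, 4 lower), 80 with missing transcripts as 0, 6 with the most abundant transcript, 4 with the 2 groups only and 0 to 110 without 1 mouse, with 8 and 7 after quantile normalization and 11 and 12 after median scaling. In Ang II vs. Control the count moved by over 1.5 times without Control mouse 1 (338) or 3 (362) or Ang II mouse 2 (403) or 5 (349). In QDG vs. Ang II it did so without Ang II mouse 2 (53) or 5 (65) or QDG mouse 2 (57), 3 (81), 4 (87) or 5 (81), and in QDG vs. Control without Control mouse 1 (7), 2 (110), 4 (0) or 5 (30), Ang II mouse 3 (26) or QDG mouse 1 (5), 2 (2) or 3 (4). Atp1b1 was called in QDG vs. Control without Control mouse 2 (log2 fold change 0.25, adjusted p = 0.0404). Some values changed sign, none of them called. Cldn16 in Ang II vs. Control went from 0.033 to −0.057 after quantile normalization and −0.049 after median scaling. In QDG vs. Control, Cnnm2 went to 0.038 with the most abundant transcript and Pth1r to −0.058 after median scaling. Without 1 mouse, the log2 fold change ran from −0.068 to 0.19 for Cldn10, −0.022 to 0.084 for Cldn16 and −0.26 to 0.026 for Cldn19 in Ang II vs. Control, from −0.022 to 0.098 for Bsnd in QDG vs. Ang II, and in QDG vs. Control from −0.47 to 0.23 for Casr, −0.026 to 0.031 for Cnnm2, −0.080 to 0.0047 for Mrs2 and −0.037 to 0.049 for Pth1r. The log2 ratios ran from −0.18 to 0.13 for Cldn16 to Cldn19 and −0.26 to 0.043 for Egf to Slc12a3 in QDG vs. Control, and −0.018 to 0.088 for Trpm6 to Slc12a3 in Ang II vs. Control. The cause was not tested. No paired analysis was made, since the study divided separate mice at random among the groups. Mouse numbers follow the order of the samples within a group and link no mice between groups. The lowest read count behind a member value was 105, for Casr in 1 mouse, and the values of Casr and Trpm6 rest on 1 listed transcript each.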

Other observations

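Trpm7, the channel kinase related to Trpm6, was noticed after its values were seen. It had 10.5, 22.1, 15.2, 9.15 and 11.6 FPKM in Control and 8.97, 8.23, 6.19, 7.31 and 7.46 FPKM in Ang II, and these groups did not overlap. All gene sums with such a downward separation made up 1.42%. In QDG, Trpm7 had 10.6, 14.4, 20.4, 18.8 and 8.42 FPKM. The log2 fold change was −0.71 in Ang II vs. Control (SE 0.24, adjusted p = 0.0999 from limma) and 0.79 in QDG vs. Ang II (adjusted p = 0.114), and neither was called.

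The third annotated transcript of Cldn10, Cldn10-202, was listed for the Control mice and entered no sum. It had 2.84 FPKM in Control mouse 1, the mouse with the lowest Cldn10-201, and 0.0119 to 0.0129 FPKM in the other Control mice.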
